A study of Gelatoporia subvermispora and Trametes versicolor with 24 samples.

Results

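The loci described here are genes of the white-rot fungus Gelatoporia subvermispora that were already read at a moderate to high level in water cultures and stood 2 to 4 times higher in cultures given vanillate. They were chosen from the same flasks that are described: genes with a CERSUDRAFT_ identifier, a mean of at least 20 CPM in the water flasks, and a ratio r, the vanillate mean plus 1 over the water mean plus 1, of at least 2 and under 4. CPM are read counts scaled to a common library total, here with TMM scaling, which corrects for a few genes taking up many reads. Of 12203 CERSUDRAFT_ loci, 6773 had a water mean of at least 20 CPM and are called expressed below, and 174 of these met the rule. They are 174 of 26883 genes counted in the whole series, which also holds Trametes versicolor. Since r comes from the contrast between vanillate and water, the height of these loci with vanillate is a description and not a finding.

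The vanillate group held 3 flasks of strain FP-105752, grown as a monokaryon, mycelium with a single nuclear type. After 12 days in static culture at 28 °C with 5 g/L cellobiose, the antioxidants ascorbic acid (5 mM) and α-tocopherol (1 mM) were added to the flasks, followed 30 min later by vanillate to a final 2 mM, with a second pulse after 12 h. The water group held 3 flasks of the same strain and age that had both antioxidants as well, and water at the same 2 times, so no group lacks ascorbic acid and α-tocopherol. Mycelium was collected on day 13, 12 h after the second pulse, and RNA was read from the whole mycelium: more RNA per cell and more cells of a kind cannot be told apart. The labels do not tell whether each flask had its own inoculum. The p-values therefore cover flask-to-flask spread, which may be technical.

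White-rot fungi are the wood-decaying basidiomycetes known for breaking down lignin, the aromatic polymer of wood, with secreted oxidative enzymes. Vanillate is a small aromatic acid with 1 methoxy group that is formed when lignin is oxidised. Fungi that use such acids take them up, remove the acid or the methyl group inside the cell, and open the aromatic ring with dioxygenases, and the series title names a dioxygenase of the extradiol kind. The files give the 174 loci by identifier only, so no enzyme, transporter or other role is stated for any of them here.

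Flask totals were 6119420 to 12333618 counts in genes with vanillate and 8498106 to 9765746 with water. The share of reads that fell in genes was 70.0% to 76.5% in vanillate flasks and 76.4% to 79.9% in water flasks. Vanillate flask 1 stood apart: it was the shallowest, and 12.3% of its reads were set aside for low alignment quality, against 5.98% and 6.74% in vanillate flasks 2 and 3 and 4.04% to 5.57% in the water flasks. Each flask is the sum of 2 libraries whose counts differed little, with a chi-square per degree of freedom of 1.01 to 1.06 within a flask and 2.88 to 8.65 between flasks of a group.

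The 174 loci ran from barely above the minimum to among the most read genes of the fungus. Their vanillate means ran from 45.2 to 6799.9 CPM with a median of 201 CPM, and their water means from 20.4 to 2133 CPM with a median of 73.6 CPM. The water median of the 6773 expressed loci was 74.1 CPM, close to theirs. The least read of them in water, CERSUDRAFT_118132, rested on 1686 counts in the vanillate flasks and 570 counts in the water flasks.

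**Figure D1:**
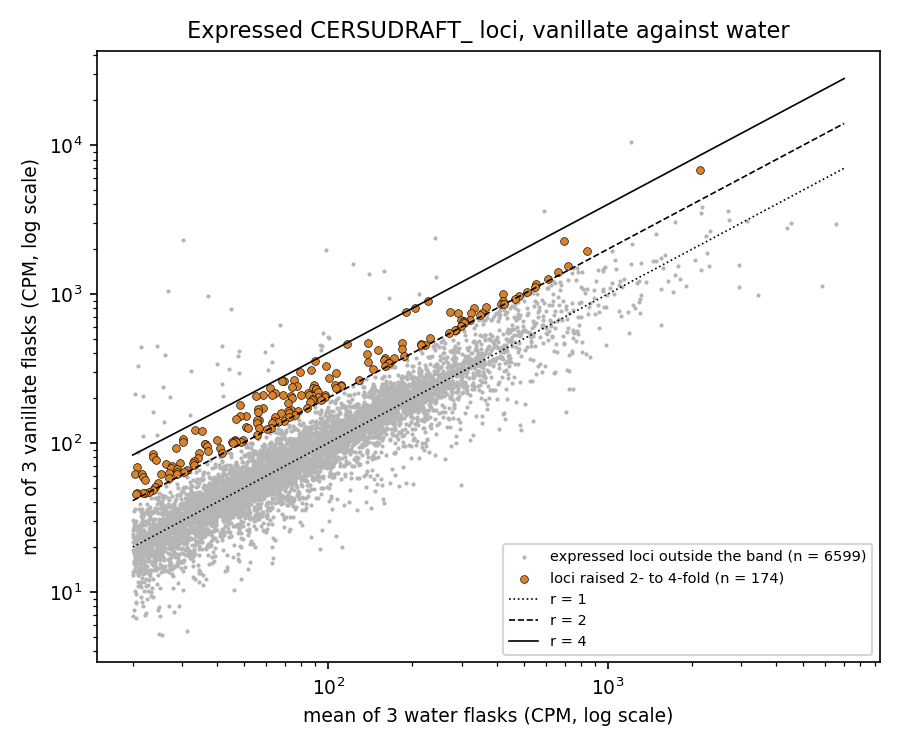
Mean of 3 vanillate flasks (vertical) against mean of 3 water flasks (horizontal) for every expressed CERSUDRAFT_ locus, in CPM on log axes, with lines at r of 1, 2 and 4. The 174 loci (orange) lie in the strip between the lines at 2 and 4, from 20.4 to 2133 CPM in water, and most are near its lower edge.

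Most of the loci lay near the lower limit of the band. Of the 174, 110 had r from 2 to 2.5, 30 from 2.5 to 3, 20 from 3 to 3.5 and 14 from 3.5 to 4, and the median was 2.28. The counts fell off smoothly across the lower limit, since 257 expressed loci had r from 1.5 to 1.75 and 131 from 1.75 to 2. Above the upper limit 48 expressed loci had r of 4 or more, 22 of them at 8 or more. The band is a slice of a continuous range and its limits mark no gap in the data.

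Values on either side of each limit were close. At the lower limit CERSUDRAFT_111324 (r = 2.00), at 575 ± 9.20 CPM with vanillate and 287 ± 18.9 CPM with water (SD, n = 3 each), was inside. CERSUDRAFT_145337 (r = 2.00 when rounded, 54.8 ± 1.63 and 26.9 ± 3.46 CPM) was just outside. At the upper limit CERSUDRAFT_84291 had r = 3.97 and CERSUDRAFT_53162, outside, had r = 4.05. At the minimum level CERSUDRAFT_118132, with 20.4 ± 0.94 CPM in water, was inside, and CERSUDRAFT_85564, with 19.6 ± 8.39 CPM in water, was outside. The next loci inside these limits were CERSUDRAFT_99604 and CERSUDRAFT_111074 (r = 2.00 and 2.01), CERSUDRAFT_153610 and CERSUDRAFT_88457 (r = 3.96 and 3.95), and CERSUDRAFT_99296 and CERSUDRAFT_123483 (20.6 and 20.7 CPM in water). The next loci outside were CERSUDRAFT_79907 and CERSUDRAFT_161831 (r = 2.00 for both), CERSUDRAFT_114386 and CERSUDRAFT_140571 (r = 4.46 and 4.50), and CERSUDRAFT_83086 and CERSUDRAFT_116229 (19.6 and 19.2 CPM in water).

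The share of expressed loci that fell in the band was lowest at 100 to 200 CPM in water and highest at 500 CPM or more, differences that were not tested. It was 2.51% (55 of 2188) from 20 to 50 CPM in water, 2.90% (59 of 2035) from 50 to 100, 1.58% (23 of 1459) from 100 to 200, 3.26% (28 of 860) from 200 to 500 and 3.90% (9 of 231) at 500 CPM or more. Ratios of at least 3 were found at every level, in 12 of the 55 loci from 20 to 50 CPM, 15 of 59 from 50 to 100, 3 of 23 from 100 to 200, 2 of 28 from 200 to 500 and 2 of 9 at 500 CPM or more. The 2 at 500 CPM or more were CERSUDRAFT_109224 and CERSUDRAFT_109222 (r = 3.19 and 3.24). Both varied widely between flasks and did not pass the test described below. The median r was 2.28 from 20 to 50 CPM, 2.51 from 50 to 100, 2.31 from 100 to 200, 2.12 from 200 to 500 and 2.12 at 500 CPM or more.

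Together the 174 loci took 6.48%, 5.74% and 5.83% of gene counts in vanillate flasks 1, 2 and 3, against 2.69%, 2.58% and 2.75% in water flasks 1, 2 and 3. Vanillate flask 1 was the highest with all 174 loci, and the order turned without the 3 loci that did not pass the test described below. The other 171 took 4.90%, 5.17% and 5.16% of gene counts in vanillate flasks 1, 2 and 3, against 2.42%, 2.34% and 2.28% in water flasks 1, 2 and 3. Their mean share was 5.08% ± 0.16 with vanillate and 2.35% ± 0.07 with water (SD, n = 3 each). Summed over the loci, the mean level was 62859 CPM with vanillate and 25584 CPM with water, and 24 loci made up 50.03% of the difference. A rise of this sum is fixed by the choice of the loci.

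The 10 loci with the highest CPM with vanillate differed in how steady they were, and CPM are not divided by gene length, so their order is one of reads and not of transcripts. CERSUDRAFT_109224 stood first, with 11686, 4050.4 and 4663 CPM in vanillate flasks 1, 2 and 3, against 1772, 1520.1 and 3107 CPM in water flasks 1, 2 and 3. CERSUDRAFT_109222 came second, with 3795, 1497 and 1514 CPM in the vanillate flasks, against 588, 480.2 and 1031 CPM in the water flasks. In both loci vanillate flask 1 was more than 2 times as high as the other two, water flask 3 was the highest of the water flasks, and the groups did not overlap.

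The other 8 were steady. CERSUDRAFT_116064 had 1865, 2042 and 1959 CPM in the vanillate flasks, against 854, 844 and 838 CPM in the water flasks. CERSUDRAFT_112941 had 1490, 1626 and 1520.1 CPM with vanillate, against 727, 728 and 697 CPM with water. CERSUDRAFT_113807 had 887, 1069 and 1043 CPM with vanillate, against 413, 427 and 428 CPM with water. In these 3 the lowest vanillate flask was more than 2 times the highest water flask. The remaining 5 of the first 10, CERSUDRAFT_85744, CERSUDRAFT_100519, CERSUDRAFT_105182, CERSUDRAFT_79634 and CERSUDRAFT_114504, had vanillate means of 1037 to 1407 CPM and water means of 514 to 663 CPM. Their r was 2.02 to 2.12.

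**Figure D2:**
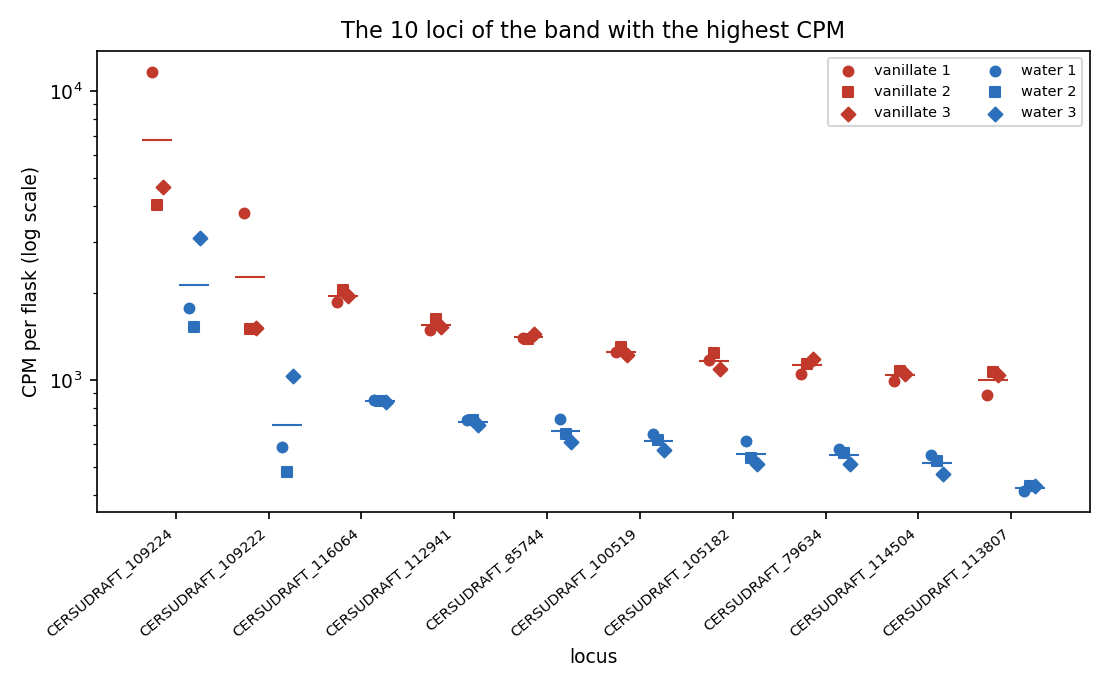
CPM in each flask (log axis) for the 10 loci of the band with the highest vanillate mean. Red points are the 3 vanillate flasks and blue points the 3 water flasks, marked by flask number, and bars are group means. In the first 2 loci the points of a group spread by more than 2-fold, and in the other 8 each group forms a tight cluster.

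The 3 loci nearest the upper limit had vanillate means above the median of the 174. CERSUDRAFT_84291 had 742, 764 and 754 CPM in the vanillate flasks, against 179, 180.2 and 208 CPM in the water flasks. CERSUDRAFT_88457 had 756, 846 and 830.4 CPM with vanillate, against 195, 214 and 204 CPM with water. CERSUDRAFT_153610 had 405, 514 and 476 CPM with vanillate, against 140, 97.3 and 113 CPM with water. In these 3, named for their high r, the lowest vanillate flask was 2.90 to 3.56 times the highest water flask. CERSUDRAFT_86374, with r = 3.90, had 853, 1077 and 749 CPM with vanillate, against 154, 181 and 350 CPM with water. Its water flask 3 stood at about 2 times the other water flasks.

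The 3 loci nearest the minimum level had the following values. CERSUDRAFT_118132 had 62.2, 63.1 and 60.7 CPM in the vanillate flasks, against 21.2, 20.6 and 19.4 CPM in the water flasks. CERSUDRAFT_123483 had 64.8, 81.5 and 60.4 CPM with vanillate, against 18.2, 20.03 and 23.8 CPM with water. CERSUDRAFT_99296 had 40.9, 47.0 and 47.7 CPM with vanillate, against 22.2, 20.03 and 19.6 CPM with water. In none of these 3 did the groups overlap. That held for all 174 loci, which were chosen on these same flasks, and for 33.7% of the expressed loci, so nothing is read from it.

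The most reproducible loci agreed between flasks to within a few percent in both groups. CERSUDRAFT_79369 had 658, 644 and 646 CPM in the vanillate flasks, against 298, 308 and 305 CPM in the water flasks. CERSUDRAFT_87110 had 178, 181 and 183 CPM with vanillate, against 48.7, 47.6 and 49.3 CPM with water, and its lowest vanillate flask was 3.60 times its highest water flask, the widest such gap of the 174. CERSUDRAFT_83989 had 168, 171 and 171 CPM with vanillate, against 57.6, 56.4 and 54.2 CPM with water. CERSUDRAFT_89134 and CERSUDRAFT_113476 completed these 5, with means of 98.1 ± 1.56 and 197 ± 4.26 CPM with vanillate and 36.2 ± 0.85 and 87.9 ± 1.77 CPM with water (SD, n = 3 each). The steadiest loci thus spanned most of the band, from r = 2.13 for CERSUDRAFT_79369 to r = 3.67 for CERSUDRAFT_87110.

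Spread was measured as the SD of log2(CPM + 1) over the 3 flasks of a group. Over the 174 loci its median was 0.09 in vanillate flasks and 0.11 in water flasks, against 0.08 and 0.09 over all expressed loci. For the 48 expressed loci with r of 4 or more the medians were 0.18 in vanillate flasks and 0.13 in water flasks. For the 172 expressed loci lowered 2- to 3-fold they were 0.14 and 0.17. These medians were not tested against each other, as loci are not replicates. Both SDs were under 0.1 in 49 of the 174 loci (28.2%), against 43.0% of the expressed loci.

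**Figure D3:**
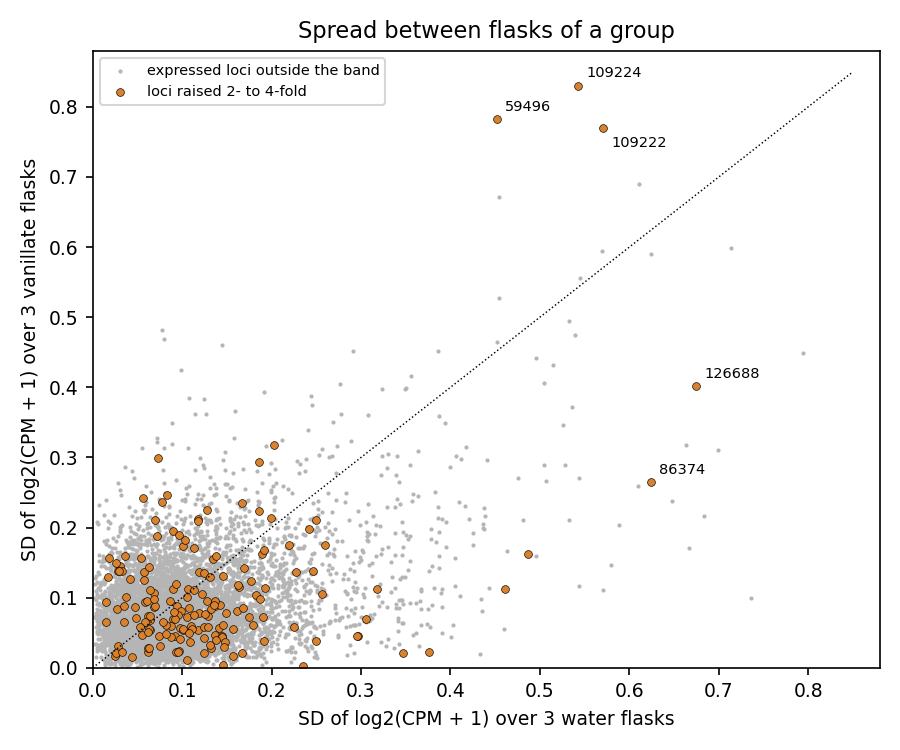
SD of log2(CPM + 1) over the 3 vanillate flasks (vertical) against that over the 3 water flasks (horizontal), 1 point per expressed locus, the 174 loci in orange and the dotted line at equality. Most of the 174 lie in the dense cloud near the origin, and the 5 with the largest sum of both SDs are labelled by number.

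A few loci varied far more. The sum of the SDs of both groups was over 1 in 4 of the 174, and these were CERSUDRAFT_109224 (1.37), CERSUDRAFT_109222 (1.34), CERSUDRAFT_59496 (1.23) and CERSUDRAFT_126688 (1.08). CERSUDRAFT_59496 had 1148, 389 and 724 CPM in the vanillate flasks, against 240.1, 202 and 372 CPM in the water flasks. Like CERSUDRAFT_109224 and CERSUDRAFT_109222, it was highest in vanillate flask 1 and, among water flasks, in flask 3, and its lowest vanillate flask was only 1.04 times its highest water flask. CERSUDRAFT_126688 had 81.9, 108 and 61.5 CPM with vanillate, against 14.8, 18.5 and 37.7 CPM with water. There the highest vanillate flask was flask 2. CERSUDRAFT_86374, the fifth most variable, also peaked in vanillate flask 2 and water flask 3.

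No flask was far from its group over the loci as a whole. The median deviation from the group mean of log2(CPM + 1) was -0.04, 0.03 and 0.02 in vanillate flasks 1, 2 and 3, and 0.02, -0.02 and -0.01 in water flasks 1, 2 and 3. Vanillate flask 1 was the lowest of its group in 93 of the 174 loci (53.4%), against 34.8% of the expressed loci. The share was 62.5% (30 of 48) in the expressed loci with r of 4 or more. It was 23.8% (41 of 172) in those lowered 2- to 3-fold, so the trait is not particular to the band. Vanillate flask 1 is also the flask with the fewest counts and the most reads of low alignment quality, and the part of these in the lower values was not tested. Without vanillate replicate 1, 175 loci met the rule, and 164 of them were among the 174.

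**Figure D4:**
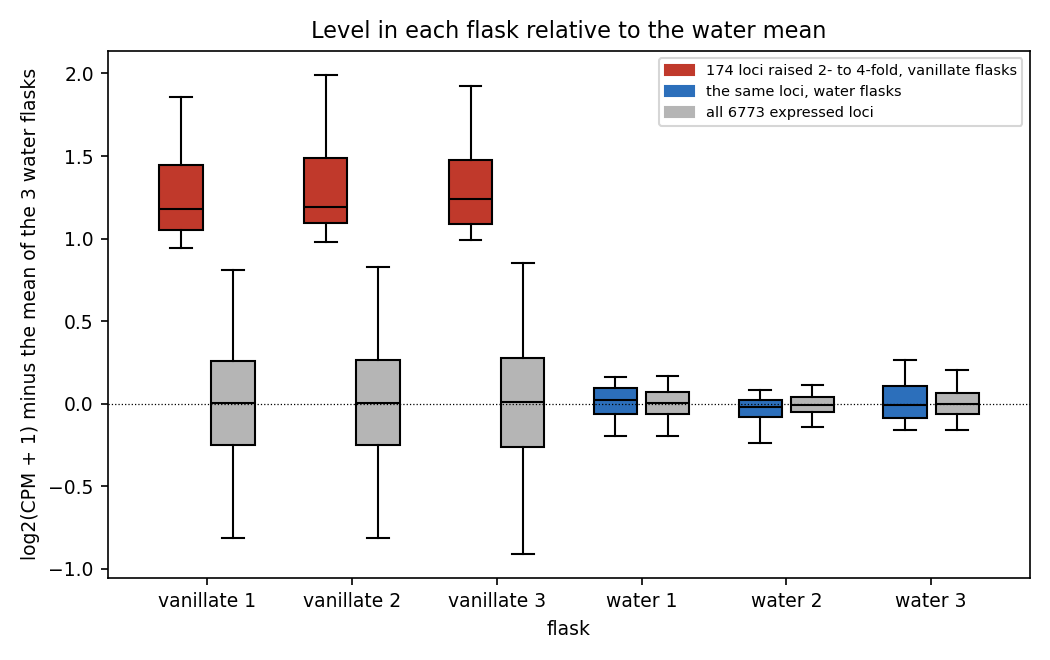
log2(CPM + 1) in each flask minus the mean of the 3 water flasks, for the 174 loci (red, vanillate flasks; blue, water flasks) and for all 6773 expressed loci (grey). Boxes show the quartiles with the median, and whiskers the 5th and 95th percentiles. The 174 loci are centred above 1 in each vanillate flask, and all expressed loci near 0 in every flask.

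Each vanillate flask set against each water flask gave a similar picture. Over the 9 pairings of flasks the median ratio (1 CPM added to both values) of the 174 loci was 2.24 to 2.43, and that of all expressed loci was 0.997 to 1.01. The number of loci at a ratio of at least 2 ran from 128 (vanillate flask 1 over water flask 1) to 164 (vanillate flask 3 over water flask 2). Among loci with a water mean of at least 20 CPM in the water flasks outside the pairing, 2.97% to 3.81% reached that ratio. The choice used these same flasks, so the medians and numbers of the 174 follow largely from it. Nothing is read from them. The lowest single ratio was 1.04, for CERSUDRAFT_59496 in vanillate flask 2 over water flask 3. In all 174 loci every vanillate flask was above every water flask, which was so for 29.0% of the 10318 genes tested and 33.7% of the expressed loci. As the choice used these flasks, nothing is read from that count. The lowest vanillate flask was at least 1.5 times the highest water flask in 171 of the loci and at least 2 times in 86. The choice used the same flasks here too, and the share of expressed loci with such margins was not counted. Nothing is read from these 2 counts either.

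In edgeR's quasi-likelihood test across 10318 genes, with Benjamini-Hochberg adjustment, 171 of the 174 loci were called higher at an adjusted p under 0.05, where 25.5% of all genes tested and 30.4% of the expressed loci were called higher and 25.9% of all genes lower. With library totals in place of TMM 171 were called as well, while over all genes 1788 were higher and 3812 lower, against 2629 higher and 2675 lower with TMM. The rule used the same contrast, so the count is a description. The log2 fold changes of the loci ran from 1.00 to 2.00 with a median of 1.21, against a median of -0.01 over all genes tested, and their SE from 0.06 to 0.58 with a median of 0.08. The 95% interval of the log2 fold change lay wholly between 1 and 2 in 71 of the 174 loci. It reached below 1 in 88 and above 2 in 21, including 6 that did both, so for these the flasks do not fix the side of the limit.

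The 3 loci that did not pass had the largest summed SDs of the 174. The log2 fold change was 1.67 (SE 0.58, edgeR adjusted p = 0.0743) for CERSUDRAFT_109224, 1.70 (SE 0.56, edgeR adjusted p = 0.0658) for CERSUDRAFT_109222 and 1.47 (SE 0.51, edgeR adjusted p = 0.0726) for CERSUDRAFT_59496. Without vanillate replicate 1 these values were 1.03, 1.11 and 1.03, with edgeR adjusted p of 0.0797, 0.0878 and 0.143. CERSUDRAFT_59496 passed without vanillate replicate 2 (1.79, edgeR adjusted p = 0.0288), and all 3 passed in the DESeq2 Wald test with all flasks. The first of them is the locus with the highest CPM of the 174.

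Among the loci that passed, edgeR's adjusted p ran from 1.87e-11 to 0.0266, and 4 of the 171 were above 0.01. These were CERSUDRAFT_126688 (log2 fold change 1.82, SE 0.44), CERSUDRAFT_89078 (1.15, SE 0.26), CERSUDRAFT_86374 (1.97, SE 0.39) and CERSUDRAFT_149984 (1.36, SE 0.28). The call of CERSUDRAFT_126688 was lost without vanillate replicate 1 or 2 or water replicate 1 or 2 (edgeR adjusted p = 0.0623, 0.0701, 0.0669 and 0.0931). That of CERSUDRAFT_89078 was lost without vanillate replicate 3 or water replicate 2 (0.0602 and 0.0632), and that of CERSUDRAFT_86374 without water replicate 2 (edgeR adjusted p = 0.0563). CERSUDRAFT_89078 and CERSUDRAFT_149984 were named after their values were seen.

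Because the choice and the description share flasks, the ratio was also read in flasks the choice had not used. The rule was applied to 2 vanillate and 2 water flasks, and the ratio was taken in the vanillate and the water flask kept out, for each of the 9 ways to do so. Between 150 and 192 loci were chosen, with a median r of 2.25 to 2.35 in the flasks that chose them. In the flasks kept out, their median ratio was 2.14 to 2.43, against 0.997 to 1.01 for all expressed loci. A ratio of at least 2 was reached by 61.5% to 89.6% of the chosen loci, with a background of 2.97% to 3.81% of all expressed loci in the same flasks. That background was 2.97%, 3.01% and 3.10% for vanillate flasks 1, 2 and 3 over water flask 1. It was 3.34%, 3.55% and 3.59% over water flask 2 and 3.45%, 3.72% and 3.81% over water flask 3. All these ratios share the scaling computed on all 6 flasks, and the 9 ways share flasks with each other, so they are not separate experiments.

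Very few of the loci chosen failed to stand higher in the flasks kept out. A ratio under 1.5 was seen in at most 3 loci in any of the 9 ways, and a ratio under 1 once, at 0.717 for CERSUDRAFT_127231 in vanillate flask 3 over water flask 3. The lowest share at a ratio of at least 2, 61.5%, came with vanillate flask 1 and water flask 1 kept out, and the highest, 89.6%, with vanillate flask 3 and water flask 2. Of the 174 loci, 104 were chosen in all 9 ways, and 61 loci outside the 174 were chosen at least once.

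**Figure D5:**
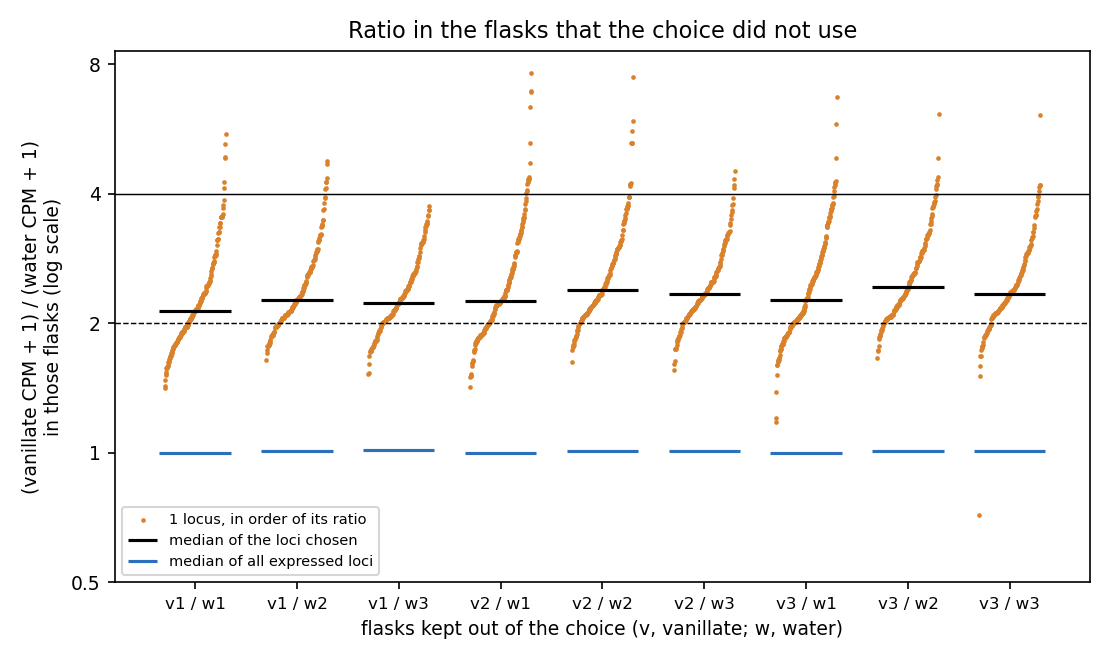
Ratio of vanillate to water in the flasks that the choice did not use (log axis), for the loci chosen on the other flasks, in each of 9 ways of keeping out 1 vanillate and 1 water flask. Each orange point is a locus, black bars are medians of 2.14 to 2.43, blue bars are the medians of all expressed loci near 1, and the lines mark 2 and 4.

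The 2 libraries of each flask gave closely similar ratios. For the 174 loci r differed between the first and the second libraries by a median of 1.03-fold and by at most 1.23-fold, in CERSUDRAFT_116953, with 2.57 in the first and 2.09 in the second. Chosen on the first libraries alone, 168 loci met the rule, and 152 of them had r of at least 2 in the second libraries, with a lowest value of 1.84. Chosen on the second alone, 176 met it, and 155 had r of at least 2 in the first, with a lowest value of 1.69. The share of all expressed loci with r of at least 2 in each library set was not counted. A total of 150 loci met the rule in each library set and in the sum. These are repeats of the same flasks and show at most the error of library and counting. Whether the second library of a flask was prepared anew or is the first one sequenced again is not stated, so the error of library preparation may not be covered.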

How the data were processed

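The authors deposited unnormalized counts of reads per gene, 1 file for every library. Of 24 libraries the 12 of G. subvermispora were used. FastQC, STAR and HTSeq are named in the submitters' processing notes. Their versions, the genome build, the annotation and the strand setting of the counting step are each not given in the sources used here. Reads shared by near-identical or overlapping genes could have been lost or split. Reads given to no gene, 23.5% to 30.0% of reads in vanillate flasks and 20.1% to 23.6% in water flasks, were left out of totals and fits.

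The 2 libraries of a flask were summed. CPM used TMM in edgeR 4.0.16 (R 4.3.3) over all genes. The quasi-likelihood test (robust, two-sided) was run on all genes kept by filterByExpr (min.count 10, min.total.count 15), and SE is the absolute log2 fold change over the square root of F. DESeq2 1.42.0 was an alternative. The code was tested on simulated data. Intervals cover the spread between flasks under the fitted model.

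The loci, lists and tests were chosen with earlier results of these data known. Loci named are the 10 with the highest vanillate mean, the 3 nearest each limit inside and outside, the 5 most and 5 least variable, the 3 with the largest difference in mean CPM, and those that did not pass the test.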

Additional observations from a re-analysis of the deposited data

How the results depend on the processing

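The number of loci that met the rule depended most on scaling. With library totals in place of TMM it was 111, of which 107 were among the 174, and the median log2 fold change of all genes tested was -0.14 in place of -0.01. By the other settings tried for the rule (DESeq2 size factors, either library, equal depth, another pseudocount or water minimum, medians for means) it was 132 to 193, and on leaving out a flask 153 to 185. Without water replicate 3, 32 of the 174 were lost, and 122 remained whichever flask was left out. Only 69 of the 174 met the rule under every one of these settings, library totals among them. With library totals the median held-out ratio was 2.37 in place of 2.27, over 98 to 135 loci; this setting was chosen after seeing the data. Without the 3 loci that did not pass, also chosen after seeing the data, the share of gene counts was 5.08% with vanillate and 2.35% with water. The log2 fold change of all 174 loci stayed above 0 in every fit listed, and 168 to 171 were called on leaving out a flask. These fits reuse the flasks of the rule, in which every vanillate flask was above every water flask for all 174. Nothing is therefore read from the signs or from the number called. The share of all genes called on leaving out a flask is not given here. Pairing of flasks by replicate number was looked for in the deviations of all 6773 expressed loci. Correlations of same-numbered deviations were -0.07, 0.03 and -0.27, and no vanillate flask correlated best with its own number. With 3 flasks in a group the deviations depend on each other, so these correlations cannot settle whether the flasks were paired. With a replicate block 168 were called, the calls of CERSUDRAFT_126688, CERSUDRAFT_86374 and CERSUDRAFT_149984 being lost (edgeR adjusted p = 0.113, 0.0591 and 0.0591). The locus with the fewest counts in water had 1686 with vanillate and 570 with water; limits from depth and from the number of flasks were not compared.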

Other observations

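The loci CERSUDRAFT_109222 and CERSUDRAFT_109224 have numbers that differ by 2, and CERSUDRAFT_109223, the number between them, showed the same order of flasks at a far lower level. It had 26.7, 7.33 and 12.2 CPM in vanillate flasks 1, 2 and 3, against 4.61, 3.21 and 6.56 CPM in water flasks 1, 2 and 3, too low in water to meet the rule. A level at least 1.5 times that of both other flasks, in vanillate flask 1 and in water flask 3 at once, was found in 3 of 6773 expressed loci. These were CERSUDRAFT_109222, CERSUDRAFT_109224 and CERSUDRAFT_59496, and 10 of the 10318 genes tested showed it in all. Among the 7 others, CERSUDRAFT_59487 had 15.1, 3.15 and 5.53 CPM with vanillate, against 2.02, 1.99 and 4.67 CPM with water, and CERSUDRAFT_162690 had 35.6, 7.41 and 16.0 CPM, against 5.28, 5.20 and 11.0 CPM. The remaining 5 were also low, and CERSUDRAFT_117107, CERSUDRAFT_95574 and CERSUDRAFT_99878 had lower means with vanillate (r = 0.839, 0.689 and 0.716). The pattern was noticed in these data and the loci named for it were chosen after their values were seen. Close numbers need not mean neighbouring or overlapping genes, and shared reads were not tested.

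In number order few of the 174 loci were next to each other. Of the expressed loci next to one of them in that order, 6 of 249 (2.41%) were themselves among the 174, against 2.57% of all expressed loci. The adjacent pairs were CERSUDRAFT_84291 with CERSUDRAFT_84293 (r = 3.97 and 2.28), CERSUDRAFT_111755 with CERSUDRAFT_111756 (2.32 and 3.09), and CERSUDRAFT_151425 with CERSUDRAFT_151441 (2.05 and 2.54). Of the 76 genes of the fungus that carry a symbol and had at least 20 CPM in water, 3 (3.95%) fell in the same band, against 2.57% of the expressed loci. They were CCP, PRX5 and CsMn06, with r of 2.48, 2.73 and 2.95. The 2 shares were not tested against each other, and nothing is read from the count.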
